A study of Mus musculus with 40 samples.

Results

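The tubulin and kinesin genes were taken as every gene whose symbol in the platform's probe table is Tuba, Tubb, Tubg, Kif or Klc followed by a number. The rule found 46 genes on 80 probes, of 16593 genes on 25697 probes in all. Of these 46 genes, 33 were tested, among 10519 genes in all, because 3 or more of 40 arrays put one of their probes over the detection level. The arrays measured RNA of dorsal root ganglia, the clusters of sensory nerve cell bodies beside the spinal cord, from adult male C57BL/6J mice of 9 to 10 weeks. In spared nerve injury, 2 of 3 branches of the sciatic nerve, the tibial and the common peroneal, were tied and cut, and the sural branch was left in place. There were 7 arrays of naive mice, which had no treatment, 3 each at 8 h, 16 h and 1, 2, 3, 5, 6, 7 and 8 days after injury, and 2 each at 4, 9 and 10 days. A sham surgery group was not analysed here, and the labels name no transgene or drug. Whether each array carries a single animal's RNA or pooled RNA is not stated in them, so p-values measure the spread between these arrays, which may be technical. A ganglion also holds neurons whose axons were not cut.

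Microtubules are hollow tubes built from paired alpha and beta tubulin, and gamma tubulin seeds new ones. In a sensory neuron they fill the axon, and kinesin motors walk along them to carry vesicles, mitochondria and neurofilaments from the cell body outward. Kinesin-1 has heavy chains (Kif5) and cargo-binding light chains (Klc). Kinesin-2 (Kif3) and kinesin-3 (Kif1, Kif13) carry other cargo, while many remaining kinesins act on the spindle of dividing cells. Changes in tubulin gene expression after axon injury are well known from rodent sensory neurons.

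Times were read in 3 phases. The early phase is the mean of 8 h, 16 h and 1 day (9 arrays), the middle phase of 2 to 5 days (11 arrays), and the late phase of 6 to 10 days (13 arrays). Signals were normalized and are given on the log2 scale, where 1 unit is a doubling. The detection level was 6.84, and differences were tested with limma over all tested genes, with a threshold of 0.05 on the adjusted p. The injury gene Atf3, a transcription factor of injured neurons, peaked at 7.51 among naive arrays and never went under 8.42 after injury. By this gene no array went against its label as naive or injured. The labels of time after injury are not tested by it. Of 7 measured sensory neuron markers, 6 were above the detection level on all 40 arrays. The array intensities had a median per array between 130.2 and 244.5 before normalization, and the number of arrays limits the precision.

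The sequences before the start sites of 4 members are shown because these members changed in at least 1 phase and RefSeq's promoter table holds them. Each is the 250 bases before the annotated start in build GRCm38.p6, 5′ to 3′ on the gene's strand. Capitals mark CCAAT, on either strand (ATTGG on the other one), a box bound by the factor NF-Y. TGANTCA and TGACGTCA, known as AP-1 and CRE motifs, were also searched on both strands and are not in these 4 windows. Only CCAAT matched there, so no matches overlap.
Kif22, chr7:127042421-127042670, strand minus: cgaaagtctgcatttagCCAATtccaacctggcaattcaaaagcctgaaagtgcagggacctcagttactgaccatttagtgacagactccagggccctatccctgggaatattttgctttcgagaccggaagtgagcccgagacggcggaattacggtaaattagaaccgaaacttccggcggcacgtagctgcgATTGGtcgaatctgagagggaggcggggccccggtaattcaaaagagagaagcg
Tuba3a, chr6:125286082-125286331, strand minus: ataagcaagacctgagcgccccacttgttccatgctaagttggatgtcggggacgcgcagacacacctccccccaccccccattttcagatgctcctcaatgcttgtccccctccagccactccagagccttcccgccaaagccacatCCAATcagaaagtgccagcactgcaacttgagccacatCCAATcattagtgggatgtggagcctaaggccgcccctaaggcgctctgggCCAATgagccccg
Tuba4a, chr1:75219295-75219544, strand minus: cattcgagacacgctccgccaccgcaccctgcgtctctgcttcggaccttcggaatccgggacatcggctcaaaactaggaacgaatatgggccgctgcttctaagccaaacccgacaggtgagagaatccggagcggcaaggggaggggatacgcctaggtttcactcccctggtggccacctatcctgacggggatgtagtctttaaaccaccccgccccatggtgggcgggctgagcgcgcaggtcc
Tubg2, chr11:101155634-101155883, strand plus: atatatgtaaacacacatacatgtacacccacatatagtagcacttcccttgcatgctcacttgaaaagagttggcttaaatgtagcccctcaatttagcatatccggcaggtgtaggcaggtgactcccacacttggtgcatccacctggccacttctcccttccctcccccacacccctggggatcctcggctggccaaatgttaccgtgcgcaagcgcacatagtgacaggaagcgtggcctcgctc
The window of Kif22 holds 2 CCAAT matches and that of Tuba3a 3, while those of Tuba4a and Tubg2 hold 0. CCAAT was found in 33.8% of 32851 windows of this length in the table, TGANTCA in 6.75% and TGACGTCA in 1.55%. The table has an entry for 40 of 46 members, in 44 windows. Of these windows, 20 (45.5%) hold CCAAT, 0 TGANTCA and 4 (9.09%) TGACGTCA. A match is a description of letters only. Tubb6 and Tubb2b are named without a sequence.

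On the probe used for each gene, tubulin and kinesin genes were mostly near their naive level after injury. Of these genes, 2, Tubb6 and Kif22, stood several-fold above it from day 2 onward. Probes near the detection level or near the top of the scale, named further below, can miss a change. On 3 dimmer probes of Tubb2b the late difference was between 0.62 and 0.69, against 0.17 on the probe used. In the early phase 1 of 33 members (Kif22, which rose) passed the test, beside 1.12% of all tested genes (0.846% higher). In the middle phase 3 rose (Tubb6, Kif22 and Tubb2b) and 0 fell, beside 10.9% of all genes, of which 5.72% higher and 5.21% lower. In the late phase 4 rose (the same 3 and Tuba3a) and 2 fell (Tuba4a and Tubg2), beside 10.9%, with 5.75% higher and 5.12% lower. In all, 6 of 33 members (18.2%) passed in at least 1 phase, beside 15% of all tested genes. The members' median difference from naive was -0.001 early, 0.01 in the middle phase and 0.01 late, and that of all genes -0.01, -0.01 and -0.02. By the moderated F-test over the 12 times, 3 members passed (Tubb6, Kif22 and Tubb2b), beside 7.55% of all genes.

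**Figure D1:**
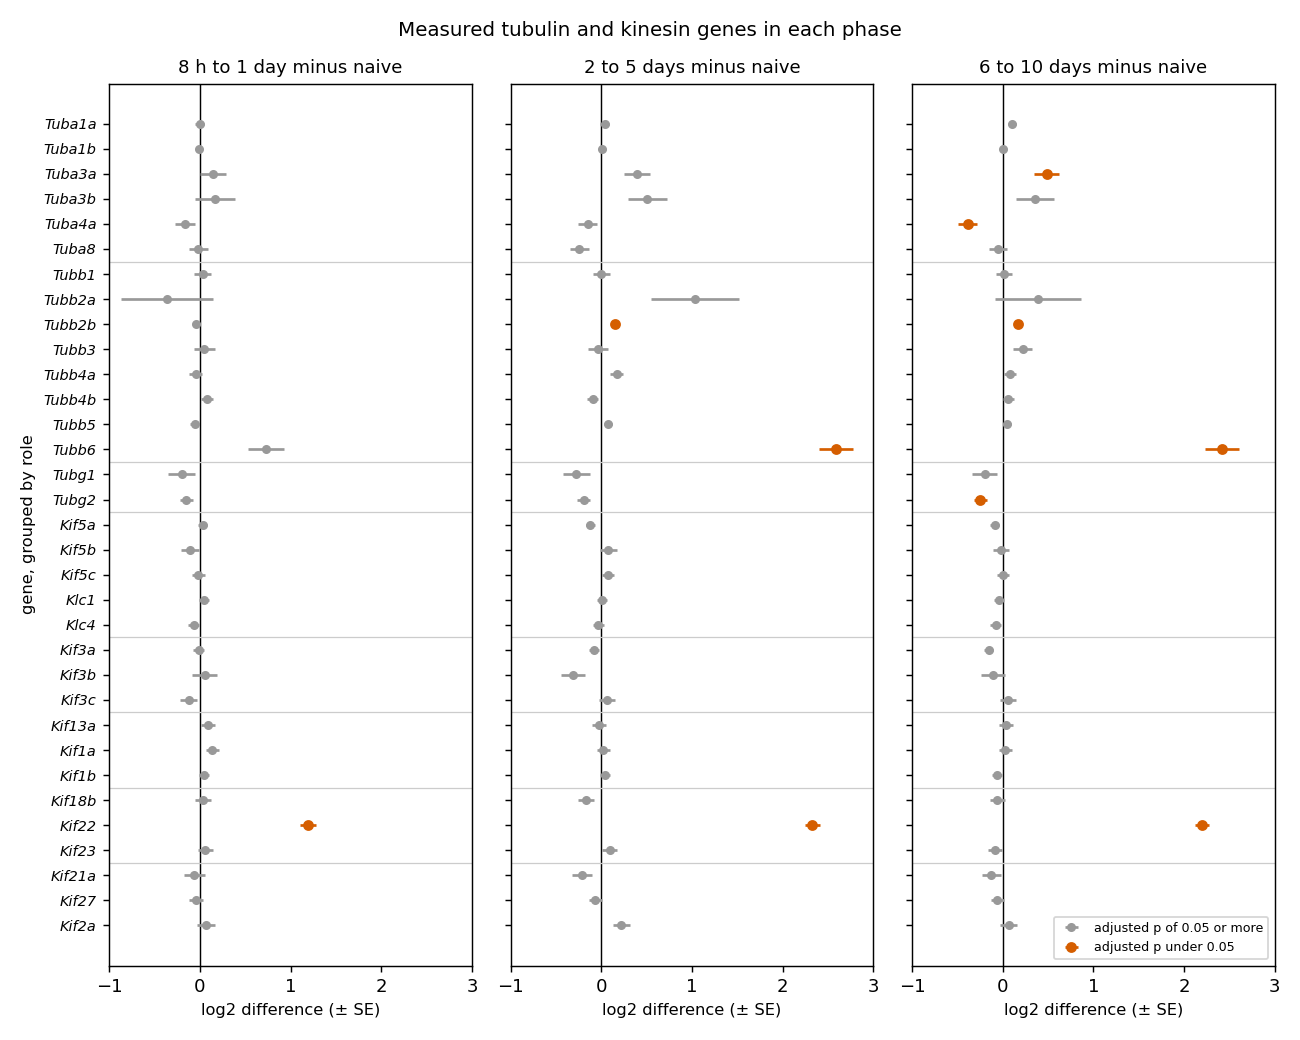
Log2 difference from naive (horizontal axis, ± SE) of the 33 measured members in the early, middle and late phase; rows are genes grouped by role, with orange points at an adjusted p under 0.05. Tubb6 and Kif22 lie above 2 in the middle and late panels, and the points of the other members, except Tubb2a in the middle phase (1.03), lie between -0.39 and 0.51.

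Tubb6 encodes a beta tubulin isotype that is broadly expressed outside the nervous system. It is on chromosome 18. The 7 naive arrays lay between 8.36 and 9.55, with a median of 8.75. At 8 h the arrays read 9.27, 8.68 and 9.17, and at 16 h 9.07, 8.98 and 9.65. At 1 day they read 9.61, 10.80 and 10.81. The 8 h arrays were thus within the naive range, and the 3 arrays at 1 day above it. From day 2 the lowest of 24 arrays was 10.51 and all 24 were above the highest naive array. In the middle phase arrays ran from 11.05 to 11.93 with a median of 11.39, and in the late phase from 10.51 to 11.75 with a median of 11.43.

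In the fit, Tubb6 had a difference of 0.21 ± 0.27 (SE, n = 3 against 7) at 8 h (limma adjusted p = 0.94) and of 0.41 ± 0.27 at 16 h (limma adjusted p = 0.593). At 1 day it rose by 1.58 ± 0.27 (limma adjusted p = 0.000382), and it passed at each of the 10 times from 1 to 10 days. The largest difference was at 5 days, 2.89 ± 0.27, or 7.43-fold. Over the middle phase it rose by 2.59 ± 0.19 (6.00-fold, limma adjusted p = 1.8e-12) and over the late phase by 2.42 ± 0.18 (5.35-fold, limma adjusted p = 4.98e-12). Over the early phase, which averages both sides of its start, the difference was 0.73 ± 0.20 (limma adjusted p = 0.0619). The early value passed under 4 of 11 other settings, with 0.75 (adjusted p = 0.0242) under scale normalization, so its side of the threshold depends on the processing. The middle minus early difference was 1.85 ± 0.18 (limma adjusted p = 1.87e-09), while late minus middle was -0.17 ± 0.16 (adjusted p = 0.688).

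Kif22, also known as Kid, encodes a chromosome-binding kinesin of the spindle. It is on chromosome 7, and the sequence before its start is given above. The naive arrays lay between 8.81 and 9.08, with a median of 8.96. At 8 h the arrays read 9.08, 9.51 and 9.09. At 16 h they read 10.77, 10.63 and 10.36, and at 1 day 10.70, 10.70 and 10.53. All 6 arrays of 16 h and 1 day were therefore over 1 log2 unit above the naive range. From day 2 the lowest of 24 arrays was 10.91 and again all 24 were above the highest naive array. The middle phase ran from 10.99 to 11.67 (median 11.26) and the late phase from 10.91 to 11.40 (median 11.12).

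Kif22 had a difference of 0.27 ± 0.12 at 8 h (limma adjusted p = 0.922) and rose by 1.63 ± 0.12 at 16 h, or 3.09-fold (limma adjusted p = 1.14e-11). It passed at each of the 11 times from 16 h to 10 days. The largest difference was at 3 days, 2.40 ± 0.12, or 5.27-fold. Over the early phase it rose by 1.19 ± 0.09 (limma adjusted p = 7.82e-12), over the middle phase by 2.33 ± 0.08 (5.02-fold, limma adjusted p = 5.36e-21) and over the late phase by 2.20 ± 0.08 (4.58-fold, limma adjusted p = 8.54e-21). The middle minus early difference was 1.13 ± 0.08 (limma adjusted p = 3.17e-13), and late minus middle was -0.13 ± 0.07 (adjusted p = 0.43).

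**Figure D2:**
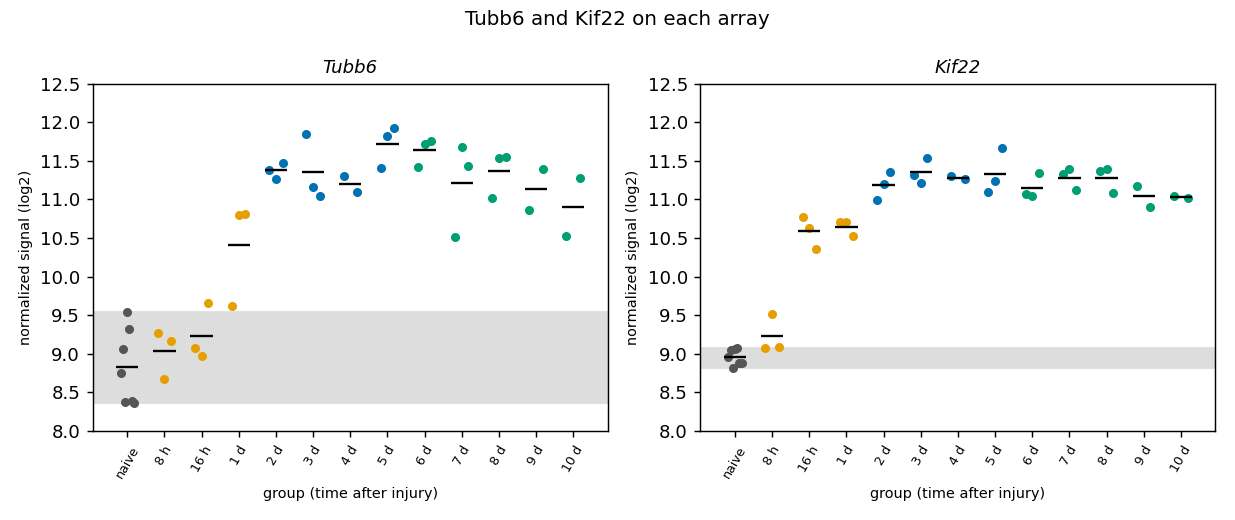
Normalized log2 signal (vertical axis) of Tubb6 and Kif22 on each of 40 arrays, by group (horizontal axis); points are arrays (grey naive, orange early, blue middle, green late), black lines group means and the grey band the naive range. Kif22 is above the band on all arrays from 16 h, Tubb6 on all arrays from 1 day.

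Spindle and mitotic kinesins count 10 on the array with Kif22 included, and 3 of these were tested. Kif23, a kinesin of the midbody in cell division, had a difference of 0.09 ± 0.08 in the middle phase (adjusted p = 0.517) and -0.08 ± 0.08 in the late phase, neither past the threshold. Its probe was dim, with a mean signal of 7.18. Kif18b, a spindle kinesin, was above the detection level on 3 of 40 arrays and had -0.17 ± 0.09 in the middle phase (adjusted p = 0.22). Kif11, Kif15, Kif18a, Kif20a, Kif24, Kif2c and Kif4, which act in cell division or at centrioles, were above the detection level on 0 or 1 array and were not tested. Of 8 marker genes of proliferating cells, 2 were measured. Birc5, a protein of dividing cells, rose by 0.27 ± 0.07 in the middle phase (limma adjusted p = 0.00995), and Plk1, a mitotic kinase, had 0.05 ± 0.07 (adjusted p = 0.728). The summed signal of both ran from 287.4 to 323.0 on naive arrays, from 284.5 to 391.0 in the middle phase and from 273.9 to 358.4 in the late phase. Their part in the Kif22 result was not tested.

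Some markers of cell types also moved in the phases in which Tubb6 and Kif22 were high. Of 6 macrophage markers, 3 were measured, and all 3 rose in both phases, with a median of 0.82 in the middle and 0.91 in the late phase. Their summed signal ran from 567.6 to 706.2 on naive arrays, from 610.2 to 963.6 early, from 972.7 to 1623 in the middle phase and from 1021 to 1679 late. Of 7 sensory neuron markers, 0 rose, while 1 fell in the middle phase and 2 late, beside 5.21% and 5.12% of all tested genes. Their median difference was -0.11 in the middle phase and -0.01 late. Rbfox3, which encodes the neuronal nuclear protein NeuN, fell by 0.21 ± 0.05 in the middle phase and by 0.24 ± 0.05 late. Isl1, a sensory neuron transcription factor, fell by 0.23 ± 0.05 late. The neuron markers' summed signal ran from 50419 to 59671 on naive arrays, 52725 to 61068 early, 47175 to 55439 in the middle phase and 51274 to 56773 late. The part of these cells in the tubulin and kinesin values was not tested. Fewer cells of a type and less RNA per cell cannot be told apart in such bulk samples. Of the measured satellite glia (4), Schwann cell (3), erythrocyte (2) and skeletal muscle (6) markers, 0 passed against naive in any phase with limma. At an unadjusted p under 0.05 there were 2 satellite glia markers in the middle phase and 1 Schwann cell marker late. Over all tested genes these shares were 23.8% in the middle phase and 21.8% late. The muscle markers had a median difference of 0.93 early, 0.19 in the middle phase and 0.85 late, and a summed signal between 509.4 and 45977 across the arrays. With their mean as a covariate, Tubb6 rose early as well (0.83, limma adjusted p = 0.0143). On all arrays together, 38.2% of the variance within groups lay on 1 axis, and that axis held 70.2% of the variance of Tubb6 within groups and 17.1% of that of Kif22. With the leading axis of genes that did not vary with time as a covariate, the early difference of Tubb6 was 0.64 (limma adjusted p = 0.000666). Both covariates were added after the values had been seen.

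Alpha tubulins form one partner of each tubulin pair. Of 6, all were tested, and in the late phase 1 rose and 1 fell. Tuba3a is an alpha tubulin gene best known from testis. Its naive arrays lay between 8.23 and 8.81 (median 8.49), its early arrays between 8.15 and 9.08 (median 8.64), its middle arrays between 8.40 and 9.66 (median 9.00) and its late arrays between 8.42 and 9.55 (median 9.02). The late arrays overlapped the naive ones, with 10 of 13 above the highest naive array. Tuba3a rose by 0.48 ± 0.14 in the late phase (1.40-fold, limma adjusted p = 0.0159), and by single times it passed at 5 days (0.76 ± 0.20) and 6 days (0.93 ± 0.20, 1.90-fold, limma adjusted p = 0.00254). This call is weak: without naive replicate 6 the late value was 0.43 (adjusted p = 0.05), and as the mean of both kept probes it was 0.25 (adjusted p = 0.19). The second probe, whose mean signal was 6.99, had 0.02 ± 0.13. The closely related Tuba3b had 0.36 ± 0.21 late (adjusted p = 0.34), and how far probes of such similar genes bind each other's RNA was not tested.

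Tuba4a, an alpha tubulin of neurons and other cells, was lower late. Its naive arrays lay between 9.49 and 10.29 (median 10.08), its early arrays between 9.57 and 10.07 (median 9.89), its middle arrays between 9.54 and 10.23 (median 9.89) and its late arrays between 9.29 and 9.96 (median 9.66). The ranges overlapped, and 4 of 13 late arrays were below the lowest naive array. Tuba4a fell by 0.39 ± 0.10 in the late phase (1.31-fold lower, limma adjusted p = 0.00999). Among single times it passed only at 10 days (-0.63 ± 0.17, n = 2, limma adjusted p = 0.0385). For replicate 2 at 10 days, the header of the detection column names 9 days, against 10 days in the label.

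Tuba1a, a main neuronal alpha tubulin of development and regrowth, gave values between 14.55 and 14.67 on naive arrays (median 14.62), 14.40 and 14.78 early (median 14.61), 14.43 and 14.80 in the middle phase (median 14.67) and 14.50 and 14.97 late (median 14.69). Of 13 late arrays, 7 were above the highest naive array. The late difference was 0.10 ± 0.05 (limma adjusted p = 0.201). This probe ranked between 3 and 41 by brightness of the 25697 probes on each array. Tuba1b, an alpha tubulin of most cells, ranked 1 or 2 on every array, and quantile normalization gives a probe of fixed rank a fixed value. Its difference of 0.00 ± 0.02 late is therefore no measure of change. Tuba8 was above the detection level on 12 of 40 arrays.

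Beta tubulins carry the isotype differences that are best studied in neurons. Of 8, all were tested, and Tubb6 and Tubb2b passed in both the middle and the late phase. Tubb2b is a beta tubulin of developing and regrowing neurons on chromosome 13. Its naive arrays lay between 14.51 and 14.63 (median 14.61), its early arrays between 14.35 and 14.69 (median 14.58), its middle arrays between 14.59 and 14.88 (median 14.76) and its late arrays between 14.70 and 14.81 (median 14.75). All 13 late arrays and 10 of 11 middle arrays were above the highest naive array. Tubb2b rose by 0.15 ± 0.04 in the middle phase (1.11-fold, limma adjusted p = 0.00711) and by 0.17 ± 0.04 late (1.12-fold, limma adjusted p = 0.00192). With scale normalization the middle value was 0.38 (adjusted p = 0.225) and the late value 0.14 (adjusted p = 0.816), so neither call held with it.

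The 5 kept probes of Tubb2b differed in brightness, and the brightest, used above, ranked between 6 and 45 of all probes. All 5 rose in the late phase and 3 of 5 in the middle phase, with p-values adjusted over all kept probes. The late difference was 0.17 ± 0.04 on the brightest probe and 0.27 ± 0.07 on the next. On the 3 dimmer probes it was 0.62 ± 0.10, 0.69 ± 0.14 and 0.68 ± 0.13. The probe that represents the gene thus gave the smallest of the 5 values.

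**Figure D3:**
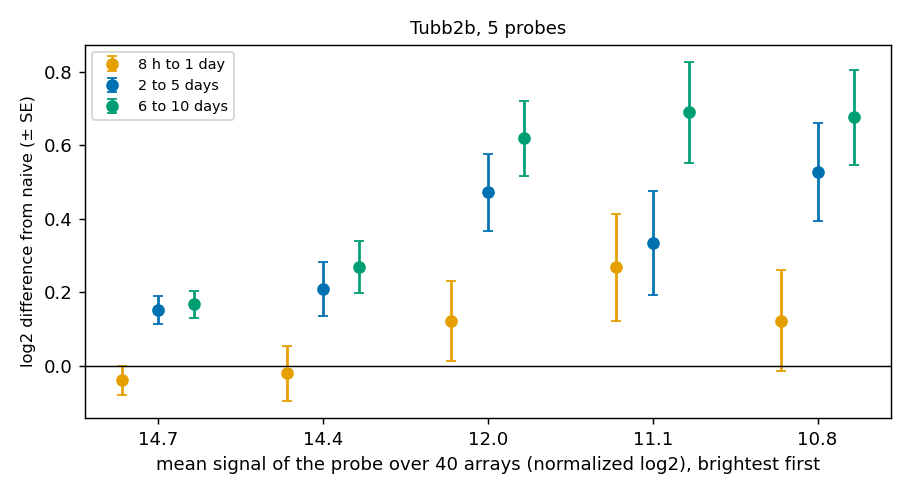
Log2 difference from naive (vertical axis, ± SE) on the 5 kept probes of Tubb2b in the early (orange), middle (blue) and late (green) phase; probes are ordered by mean normalized signal (horizontal axis). The late values are 0.17 and 0.27 on both probes with a mean above 14 and between 0.62 and 0.69 on the other 3.

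Tubb2a, the neighbouring beta tubulin of neurons and other cells on chromosome 13, spread more between arrays of a group than nearly any other gene. Its naive arrays ran from 7.09 to 10.21 (median 8.05), its early arrays from 7.15 to 10.25 (median 7.85), its middle arrays from 8.06 to 10.31 (median 9.80) and its late arrays from 7.12 to 10.41 (median 8.62). The 4 ranges overlapped almost wholly. Its SD within groups was 1.10, against a median of 0.18 over all tested genes, and 11 genes (0.105%), itself included, reached that SD. Its difference was 1.03 ± 0.49 in the middle phase (limma adjusted p = 0.187) and 0.39 ± 0.47 in the late phase (adjusted p = 0.74). Middle minus early was 1.39 ± 0.45 (limma adjusted p = 0.0463), a call that 19 of 40 omissions of a single array ended.

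**Figure D4:**
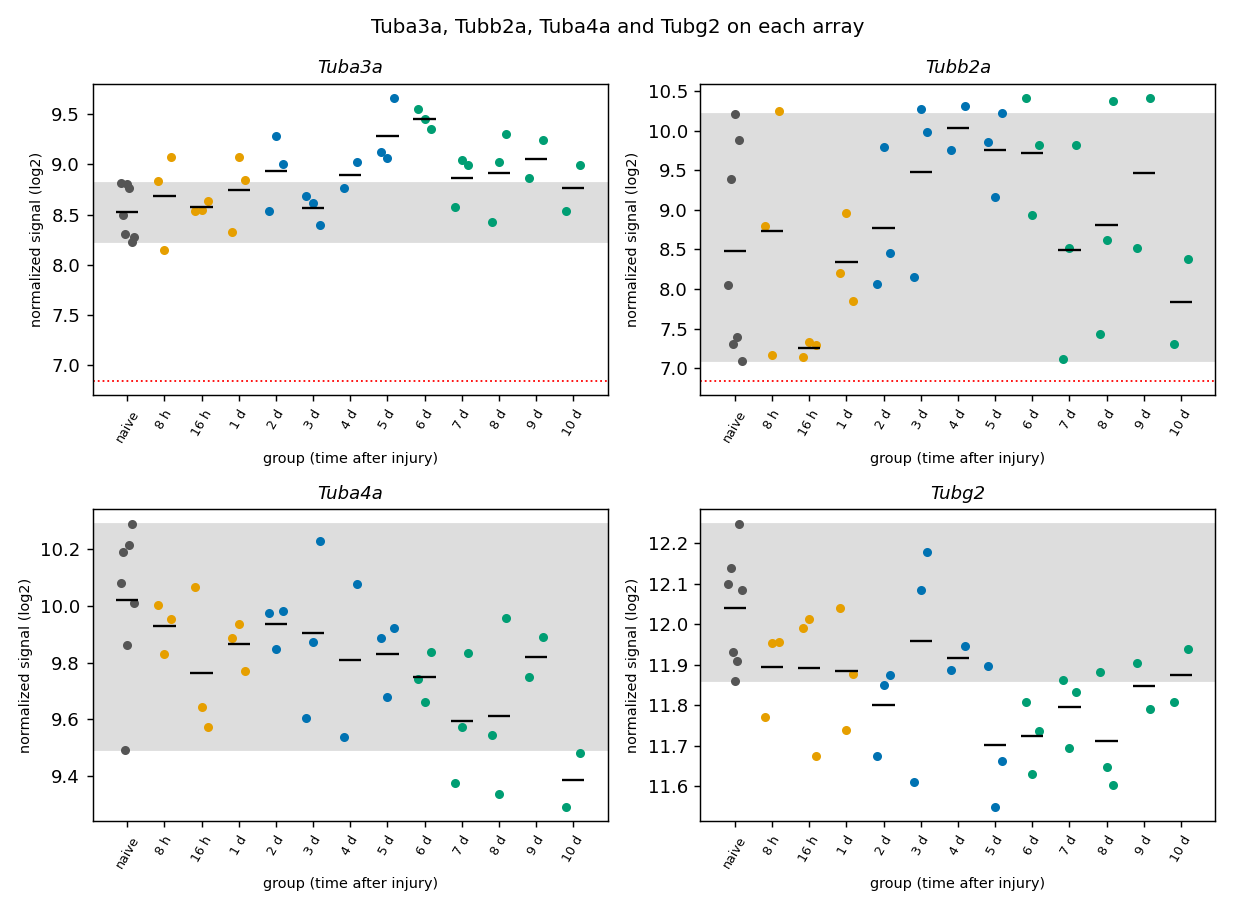
Normalized log2 signal (vertical axes, each with its own range) of Tuba3a, Tubb2a, Tuba4a and Tubg2 on each array, by group; colours, lines and band as in the plot of Tubb6 and Kif22, with a red dotted line at the detection level of 6.84 where it is in range. Tubb2a spans 7.09 to 10.21 among naive arrays alone. Of 13 late arrays, 4 of Tuba4a and 9 of Tubg2 lie below the naive band, and the others lie within it.

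Tubb3, the beta tubulin used as a neuron marker, was read by a dim probe that was above the detection level on 34 of 40 arrays. It lay between 6.80 and 7.37 on naive arrays (median 7.00), between 6.81 and 7.34 early (median 7.07), between 6.51 and 7.46 in the middle phase (median 7.08) and between 6.89 and 7.76 late (median 7.19). The groups overlapped, and the late difference was 0.22 ± 0.11 (limma adjusted p = 0.219). Tubb5, Tubb4a and Tubb4b, beta tubulins of broad or neural expression, had late differences of 0.05 ± 0.05, 0.08 ± 0.07 and 0.06 ± 0.06, none past the threshold. Tubb1, the beta tubulin of platelets, was above the detection level on 4 arrays.

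Gamma tubulin nucleates microtubules at centrosomes and along neurites. Tubg2, the form that is prominent in brain, lay between 11.86 and 12.25 on naive arrays (median 12.08), between 11.67 and 12.04 early (median 11.95), between 11.55 and 12.18 in the middle phase (median 11.87) and between 11.60 and 11.94 late (median 11.81). Of 13 late arrays, 9 were below the lowest naive array. Tubg2 fell by 0.25 ± 0.07 in the late phase (1.19-fold lower, limma adjusted p = 0.0185). Among single times it passed only at 5 days (-0.34 ± 0.10, n = 3, limma adjusted p = 0.0431), which is in the middle phase, and at none of the late times. Without naive replicate 6 the value was -0.21 (adjusted p = 0.0639), and with scale normalization -0.30 (adjusted p = 0.189). Tubg1, the ubiquitous form, had -0.20 ± 0.14 late (adjusted p = 0.467).

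The motors of axonal transport stayed without a call against naive in the reported fit. Of 14 genes of kinesin-1, kinesin-2 and kinesin-3, 11 were tested, and by limma 0 passed in any of the 3 phases against naive. Over all tested genes 1.12% passed early, 10.9% in the middle phase and 10.9% late, and 0 among 11 genes is not far from such shares. At an unadjusted p under 0.05 there were 0 early, 2 in the middle phase (Kif3b and Kif5a) and 1 late (Kif3a), beside 11.3%, 23.8% and 21.8% of all tested genes. Their differences lay between -0.12 and 0.14 early, between -0.32 and 0.08 in the middle phase and between -0.15 and 0.06 late, with SEs of at most 0.14. A missed threshold does not show that these genes did not change.

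Kif5a, the neuronal kinesin-1 heavy chain that carries neurofilaments, lay between 12.26 and 12.48 on naive arrays (median 12.39), between 12.23 and 12.64 early (median 12.41), between 12.03 and 12.45 in the middle phase (median 12.20) and between 12.12 and 12.41 late (median 12.29). Of 11 middle arrays, 6 were below the lowest naive array, with a difference of -0.12 ± 0.05 (limma adjusted p = 0.142). From the early to the middle phase it fell by 0.15 ± 0.05 (limma adjusted p = 0.0459). Kif5c, another neuronal heavy chain, lay between 12.77 and 13.04 on naive arrays and between 12.66 and 13.17 late, with a late difference of 0.01 ± 0.06. Kif5b, the ubiquitous heavy chain, was above the detection level on 3 arrays. Klc1, the main neuronal light chain, lay between 14.24 and 14.42 on naive arrays and between 14.12 and 14.52 late, with a late difference of -0.04 ± 0.05. The probe used for Klc1 ranked between 21 and 66 by brightness of all probes. Of the 4 dimmer probes of Klc1, 1 fell in the middle phase (-0.29 ± 0.08, limma adjusted p = 0.0161 over all kept probes), and the other probes of Klc1 did not pass against naive. For middle minus early that probe fell (-0.26 ± 0.07, limma adjusted p = 0.0222), and so did another dimmer probe (-0.36 ± 0.10, limma adjusted p = 0.02).

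Kif3a, a kinesin-2 subunit, lay between 12.35 and 12.72 on naive arrays (median 12.57), between 12.41 and 12.69 early (median 12.57), between 12.31 and 12.64 in the middle phase (median 12.51) and between 12.22 and 12.57 late (median 12.39). Its late difference was -0.15 ± 0.05 (limma adjusted p = 0.0571), next to the threshold. It passed under 3 of 11 other settings, so its side of the threshold depends on the processing. These were robust variances with array weights (limma adjusted p = 0.0406), the block of serial numbers (0.0206) and the leading axis as a covariate (0.0209). The block and the covariate were chosen after seeing the data. A second, dimmer probe of Kif3a had -0.10 ± 0.07 late (limma adjusted p = 0.5 over all kept probes). For middle minus early that probe fell (-0.22 ± 0.07, limma adjusted p = 0.0463). Kif1a, a carrier of synaptic vesicle precursors, lay between 9.24 and 9.70 on naive arrays and between 9.19 and 9.77 late, with a late difference of 0.03 ± 0.07. Kif1b, which carries mitochondria and vesicles, lay between 13.46 and 13.68 on naive arrays and between 13.30 and 13.72 late, with -0.06 ± 0.05. Among the other kinesins, Kif2a, which shortens microtubules at their ends, had 0.22 ± 0.10 in the middle phase (adjusted p = 0.146), and Kif21a had -0.21 ± 0.11 (adjusted p = 0.24). Kif27, of the motile cilium, was above the detection level on 24 arrays. The remaining untested members, Kif12, Kif17, Kif1c, Kif2b, Kif9 and Klc3, were above the level on 0 to 2 arrays.

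Between phases, 7 of 33 members passed for middle minus early, 5 higher and 2 lower, beside 9.34% of all tested genes (5.8% higher and 3.54% lower). Apart from Tubb6, Kif22, Tubb2a and Tubb2b (0.19 ± 0.04), these were Tubb4a (0.22 ± 0.07, limma adjusted p = 0.0306), Tubb4b (-0.17 ± 0.06, limma adjusted p = 0.0481) and Kif5a (-0.15 ± 0.05, limma adjusted p = 0.0459). The calls of Tubb4a, Tubb4b and Kif5a ended in 9, 24 and 22 of 40 omissions of a single array. With scale normalization only Tubb6 and Kif22 of the 7 passed. In the same comparison all 3 macrophage markers rose, with a median of 0.72, and 1 of 4 satellite glia markers, Fabp7, a lipid-binding protein of glia, rose by 0.91 ± 0.29 (limma adjusted p = 0.045). The part of these cells in the differences between phases was not tested. For late minus middle 0 members passed with limma, beside 0.646% of all genes. At an unadjusted p under 0.05 there were 6 (Kif1b, Kif23, Tuba4a, Tuba8, Tubb3 and Tubb4b), beside 13.2% of all genes. The phases share no arrays, but each difference from naive rests on the same 7 naive arrays.

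Of 34 listed genes of proteins that bind microtubules, 30 were tested. In the middle phase 5 rose and 2 fell, and in the late phase 4 rose and 2 fell, with a median difference of 0.06 and 0.04. Of all tested genes, 5.72% rose and 5.21% fell in the middle phase, and 5.75% and 5.12% late. Stmn4, a neuronal stathmin that binds free tubulin, rose by 1.62 ± 0.18 in the middle phase and by 1.82 ± 0.17 late. Crmp1, a collapsin response mediator that binds tubulin, rose by 0.53 ± 0.10 and 0.57 ± 0.10. Map7d1, a cofactor of kinesin-1, rose by 0.41 ± 0.10 and 0.35 ± 0.10. Map6, which stabilizes microtubules, rose in all 3 phases, by 0.32 ± 0.07 early (limma adjusted p = 0.00822), 0.31 ± 0.07 in the middle phase and 0.26 ± 0.06 late. Map7d2, also a kinesin-1 cofactor, fell by 0.57 ± 0.16 in the middle phase, Dclk2, a doublecortin-like kinase, by 0.25 ± 0.07 and 0.28 ± 0.07, and Map7 by 0.33 ± 0.11 late. No test compared this list with the members.

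The counts against naive below stand beside 1.12% of all tested genes early, 10.9% in the middle phase and 10.9% late. Of 21 measured dynein and dynactin genes, the motor of return transport, 1 fell late (Dync1i1, an intermediate chain, by 0.28 ± 0.09) and none rose in any phase. Of 24 genes that fold, modify or sever tubulin, 1 fell late (Tpgs2, a subunit of the polyglutamylase, by 0.21 ± 0.07). Of 15 kinesin adaptors and partners, 1 rose in the middle phase (Kifap3, the kinesin-2 accessory subunit, by 0.33 ± 0.11, limma adjusted p = 0.0492). Of 7 other tubulins and gamma-tubulin complex genes, 0 passed against naive with limma. At an unadjusted p under 0.05 there were 0, 3 and 2 in the early, middle and late phase, beside 11.3%, 23.8% and 21.8% of all tested genes. For middle minus early 1 of the 7 rose, Nedd1, which brings the gamma-tubulin complex to the centrosome and spindle (0.25 ± 0.06, limma adjusted p = 0.00506). In that comparison 5.8% of all tested genes rose.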

How the data were processed

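The members and the lists of related and marker genes were chosen with earlier results of these data known. Per the labels, cRNA carrying biotin was put on Illumina bead arrays. Per the file headers, each of 25697 probes has an intensity and a detection p-value for every array. A further table from the authors' deposited files is on the log2 scale and equals the log2 quantile-normalized signals to within 5e-09. The scanner software is not given in the sources used here. Detection p-values that should fall with the same array's signal do so on 3 arrays and not on 37, so these 3 set the detection level (6.84, range 6.81 to 6.87).

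Normexp background correction (offset 50) came before quantile normalization and log2. Probes over the level on 3 or more arrays were kept (15462). The platform's probe table gave 1 symbol for 23978 probes and none for 1719, and 23962 matched RefSeq by Entrez number. A gene is represented by its kept probe of highest mean. Tests used limma 3.58.1 in R 4.3.3 with a mean for each group and 1 trended variance model over all 40 arrays. Benjamini-Hochberg adjustment ran over 10519 genes per comparison. The fit was also run on simulated data with noise independent between genes. Such data lack the axis of variance that genes share here, so they cannot show the error rate under it. Array values are given for members past the threshold in a phase and for 11 members listed beforehand, except Kif5b. Those of Tubb2a, which belongs to neither group, are given as well. Up to 4 genes per direction are named of each related list. Alternatives were neqc (which reads the detection p-values, although these do not follow the signal on 37 arrays), the deposited log2 table, scale normalization, the mean of probes, no filter, only the arrays compared, robust variances with array weights, the replicate number as a block, the set of serial numbers as a block, both covariates and each array left out. Of 201 pairs of arrays with the same replicate number in different groups, 74 had a correlation of deviations over 0.1 (median -0.02). Of 396 pairs with different numbers, 151 did. The sample names also carry serial numbers, read here as sets of 26. Of 231 pairs of arrays of the same set in different groups, 88 had a correlation over 0.1 (median 0.00). Of 498 pairs of different sets, 185 did. These counts show no clear pairing by number or by set. With 38.2% of the variance within groups on 1 axis, a weaker shared effect could go unseen, so pairing is not excluded.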

Additional observations from a re-analysis of the deposited data

Results flagged for a closer look

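For 7 members the middle and the early difference from naive differed by a test of that difference itself. The middle minus early values were 1.85 for Tubb6, 1.13 for Kif22, 1.39 for Tubb2a, 0.19 for Tubb2b, 0.22 for Tubb4a, -0.17 for Tubb4b and -0.15 for Kif5a, on the log2 scale. The 4 members other than Tubb6, Kif22 and Tubb2b lost this call in at least 9 of 40 omissions of a single array.

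Among the naive arrays of the 33 tested members, 1 value stood apart from its 6 companions: Tuba1b in naive replicate 3 read 15.11, and the nearest other array 15.20. Chance flags about 1 in 20 groups. This probe ranks 1 or 2 by brightness on every array, and quantile normalization gives each rank 1 value.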

How the results depend on the processing

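No called value changed direction. Over 11 settings other than omissions of an array, 27 of 990 values of the 18 members followed here in 5 comparisons lost a call and 17 gained one, while 42 values without a call in the reported fit changed sign, the largest reaching a size of 0.24 and none called after the change. Over 40 omissions, 76 of 3600 lost one and 18 gained one, and 63 changed sign, again none called. The middle, late and middle minus early calls of Tubb6 and all calls of Kif22 held under every setting run. The cause of the changes below was not tested.

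With robust variances and array weights, members called were 16 at any time (main 3), 2 early (1), 11 in the middle phase (3), 12 for middle minus early (7) and 1 for late minus middle (0, Tubb4b), while calls over all genes went from 794 to 4554, 118 to 212, 1150 to 2130, 982 to 2370 and 68 to 389. Related genes called in the middle phase went from 8 to 24. With the leading axis of genes that did not vary with time as a covariate, 6 members were called at any time and 2 early, and 3, 13 and 15 related genes early, in the middle phase and late (main 1, 8 and 8), with 1473 genes at any time, 215 early, 1732 late and 1688 for middle minus early. With the muscle markers as a covariate, 5 members were called at any time, 2 early and 5 in the middle phase, with 220 genes early. Both covariates were chosen after seeing the data. With scale normalization 2 members were called early and 2 for middle minus early, and 0, 5 and 3 related genes early, in the middle phase and late, with 429 genes at any time, 61 early, 673 in the middle phase, 657 late and 534 for middle minus early. Without the filter, 4 members were called for middle minus early. With only the arrays compared, 5 were called in the middle phase, with 65 genes called early. As the mean of all kept probes, the late call of Tuba3a and the middle minus early call of Kif5a ended, Klc1 gained one for middle minus early (-0.16), and Tubb2b kept its calls at 0.34 in the middle phase and 0.48 late (0.15 and 0.17 on the brightest probe).

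With the replicate number as a block, which rests on naive replicates 1 to 3 alone, 2 members were called late (main 6). Related genes called were 0 early, 4 in the middle phase and 4 late. Whether the replicate numbers pair the arrays is not known. Calls over all genes went to 39 early, 648 in the middle phase and 551 late. Under the block Tubb2b was 0.16 (adjusted p = 0.0934) in the middle phase and 0.18 (adjusted p = 0.0647) late. Late values of Tuba3a, Tuba4a and Tubg2 were 0.49 (adjusted p = 0.119), -0.28 (adjusted p = 0.324) and -0.27 (adjusted p = 0.137). A block of sets of 26 serial numbers, chosen after seeing the data, kept every count above within 1.5 times. With it the middle minus early call of Kif5a ended (-0.15, adjusted p = 0.0588) and Kif3a was called late (-0.19, adjusted p = 0.0206).

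Leaving out single arrays gave 3 to 5 members at any time (5 without 3-day replicate 1 or 8-day replicate 1), 1 to 2 early (2 without naive replicate 4 or 5, 1-day, 3-day or 7-day replicate 1), 3 to 5 in the middle phase (5 without naive replicate 4), 4 to 7 late, 3 to 9 for middle minus early (3 or 4 in 14 omissions) and 0 for late minus middle. Related genes were 1 to 2 early (2 without 16-h replicate 3 or 1-day replicate 2), 6 to 10 in the middle phase and 5 to 9 late (5 without naive replicate 1 or 2 or 6-day replicate 3). Values of Kif18b, Kif5b, Tubb1, Tuba8, Kif27, Tubb3, Kif23 and Kif13a lie near the detection level, where changes are understated. Those of Tuba1b, Tuba1a, Tubb5, Tubb2b and Klc1 lie near the top of the scale.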

Other observations

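The spread of Tubb2a between arrays of one group was shared by other genes. After group means were removed, the 5 genes whose values followed it most closely over 40 arrays, chosen after their values were seen, were Actg1, Disp2, Cd24a, Slc3a2 and Gatm. Their Pearson correlations with Tubb2a lay between 0.96 and 0.97, and their Spearman correlations between 0.95 and 0.98. Without the 2 arrays farthest from the median of Tubb2a the Pearson values lay between 0.96 and 0.97. The values of all genes on an array come from the same hybridization and normalization, and no p is given. Actg1, a cytoskeletal actin gene, ran from 6.28 to 9.95 over the arrays. For some tubulin members picked by hand, the same correlation with Tubb2a was 0.73 for Tuba3b, 0.58 for Tuba3a, 0.11 for Tuba1a, 0.10 for Tubb2b and -0.37 for Tubb4b. Those of the other members are not given here.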
